A study of Mus musculus with 3 samples.

Results

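The genes described here encode the extracellular matrix and its cell surface receptors, and were read in single neuronal nuclei from tissue dissected as the mouse lateral habenula. They were chosen by symbol from the count table and number 112 of its 32285 genes. The rule took every collagen (Col), laminin (Lama, Lamb, Lamc), ADAMTS protease (Adamts) and integrin (Itga, Itgb) symbol whose prefix is followed by a digit, together with Eln, Egflam, Sulf1, Sulf2, Vcan, Acan, Bcan, Ncan, Tnc, Tnr, Hapln1, Hapln4 and Reln. By class they were 44 collagens, 11 laminins, 4 lecticans, 2 link proteins, 2 tenascins, 2 sulfatases, 19 ADAMTS proteases, 12 integrin alpha and 9 integrin beta genes, and Eln, Egflam and Reln. The remaining 4 match by name alone and encode other proteins. Col4a3bp encodes a ceramide transfer protein, Itgb3bp a kinetochore protein, and Itgb1bp1 and Itgb1bp2 proteins that bind an integrin tail.

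Collagens and laminins assemble outside the cell into fibrils and basement membranes, and integrins, each a pair of an alpha and a beta subunit, tie the cell to them. In the brain much of the matrix is made of lecticans, chondroitin sulfate proteoglycans that are held to hyaluronan by link proteins and joined by tenascins, and around some neurons this forms a dense perineuronal net. ADAMTS proteases cut lecticans and process collagens, while the secreted sulfatases trim sulfate groups from heparan sulfate and so change how it binds growth factors.

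The nuclei carried KASH-GFP, a fluorescent tag anchored in the nuclear envelope, and were sorted by that signal. The labels call them BNST LHb neurons, after the bed nucleus of the stria terminalis and the lateral habenula, an epithalamic region known for its part in aversion. The study compared sexually experienced females (mothers), virgin females and virgin males. For each group 3 mice were pooled into 1 library. Strain, age and the way the tag reached the cells are unstated in the sources used here. Because there was 1 library per group, no test between groups was possible, and every interval below covers counting error only.

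The authors' annotation gave 592 neurons among 603 nuclei, 201 from mothers, 187 from virgin females and 204 from virgin males, and no cell barcode was shared between libraries. Neuronal UMIs (molecular identifiers that each mark 1 captured transcript) came to 2691639, 2718356 and 2122919, and the median neuron had 11898, 13181 and 9414. A level is given as CPM, counts per 1000000, the UMIs of a gene over all UMIs of the same nuclei, with an exact Poisson 95% interval where one is drawn. Where 3 unlabelled levels of a gene follow each other, the order is mothers, virgin females, virgin males. Neurons fell into 5 deposited clusters of 172, 157, 97, 91 and 75 nuclei, numbered 0 to 4. All 6 lateral habenula markers and all 6 thalamic markers were detected. The summed thalamic level was 7089, 8266 and 10641 CPM in clusters 0, 2 and 3, against 2053 in cluster 1 and 1454 in cluster 4. The summed habenular level was highest in clusters 1 and 4, at 1893 and 1760 CPM, and 899 to 1173 in the others. In clusters 0, 2 and 3 the thalamic markers were thus high, which goes against the dissection label, and the clusters are called by number.

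Together the 112 genes took 0.260% of neuronal UMIs, and 50 of them had at least 50 UMIs. Another 58 had 1 to 49 UMIs, and Adamts13, Lamb2, Col6a1 and Itgb2l had none. The summed level was 2483 CPM (mothers), 2578 (virgin females) and 2789.6 (virgin males), and from 1994 CPM in cluster 2 to 3123 in cluster 1. Levels are not ranked between genes, because gene length and the counting of intronic reads, which is unstated in the sources used here, can set them.

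Reference sequence is shown first for genes with sharply different clusters. The 200 bases before the start of 1 gene led by cluster 1, 1 led by cluster 2 and 1 led by cluster 4 are given, as RefSeq has them on GRCm38.p6, each 5′ to 3′ on the strand of its gene. Col11a1, a fibrillar collagen, lies on the plus strand with this window at chr3:114030340-114030539. Egflam, which encodes pikachurin, a secreted ligand of dystroglycan, lies on the minus strand with its window at chr15:7398396-7398595. Col24a1, another fibrillar collagen, lies on the plus strand with its window at chr3:145292272-145292471. Capitals mark a match, on either strand, to the GC box GGGCGG, the nuclear receptor half-site AGGTCA or the E-box CAGCTG.
Col11a1: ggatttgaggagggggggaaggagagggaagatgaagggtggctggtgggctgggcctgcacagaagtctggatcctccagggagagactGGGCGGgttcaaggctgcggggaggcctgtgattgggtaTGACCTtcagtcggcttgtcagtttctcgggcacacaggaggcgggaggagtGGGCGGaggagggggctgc
Egflam: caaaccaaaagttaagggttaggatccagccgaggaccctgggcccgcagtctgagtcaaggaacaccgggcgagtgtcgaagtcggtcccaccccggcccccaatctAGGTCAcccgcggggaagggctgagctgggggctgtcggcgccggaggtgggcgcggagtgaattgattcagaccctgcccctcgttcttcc
Col24a1: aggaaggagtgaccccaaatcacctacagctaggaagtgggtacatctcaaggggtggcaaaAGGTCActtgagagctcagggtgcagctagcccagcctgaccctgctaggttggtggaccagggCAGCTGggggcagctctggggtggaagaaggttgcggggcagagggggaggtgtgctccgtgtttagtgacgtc

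The half-site was in all 3 of these windows, although each gene was led by a different cluster. RefSeq windows of 300 bases were at hand for 78 of the 112 genes, for 34 of the 50 with at least 50 UMIs and for 14 of the 25 described below as led by a cluster. In the 17 windows of those 14 genes the half-site stood in 4, all of them from the 3 genes shown, or 23.5%, against 16.3% of 32851 windows of all genes. The GC box stood in 10 of the 17, or 58.8%, against 35.7% of all windows, and these windows had a median GC content of 62.3% against 52.7%. The E-box stood in 3 (17.6%, against 16.3%), the TCF/LEF motif CTTTGA in 2 (11.8%, against 16.0%) and the TATA box TATAAA in 1 (5.88%, against 13.6%). A match is a description of the letters and no evidence of binding.

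The clusters held different matrix genes. A gene was called led by a cluster when its level there was at least 2-fold that in the other clusters pooled, in the sum and in each of the 3 libraries. Of the 50 genes with at least 50 UMIs, 25 were led by 1 cluster (50%), against 8.63% of 11467 genes with at least 50 UMIs. Among genes of 50 to 600 UMIs the counts were 25 of 47, against 8.51% of 9046 genes. The median log2 ratio of the highest cluster to the others pooled was 1.62 for the set and 0.54 for all genes. For 21 of the 50 the lowest library of the highest cluster stood above every library of every other cluster, against 12.4% of all genes. The clusters were made from the expression of these same nuclei, so these contrasts are a description and were not tested. The genes were also chosen with earlier results of these data known, so the shares are no independent check.

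**Figure D1:**
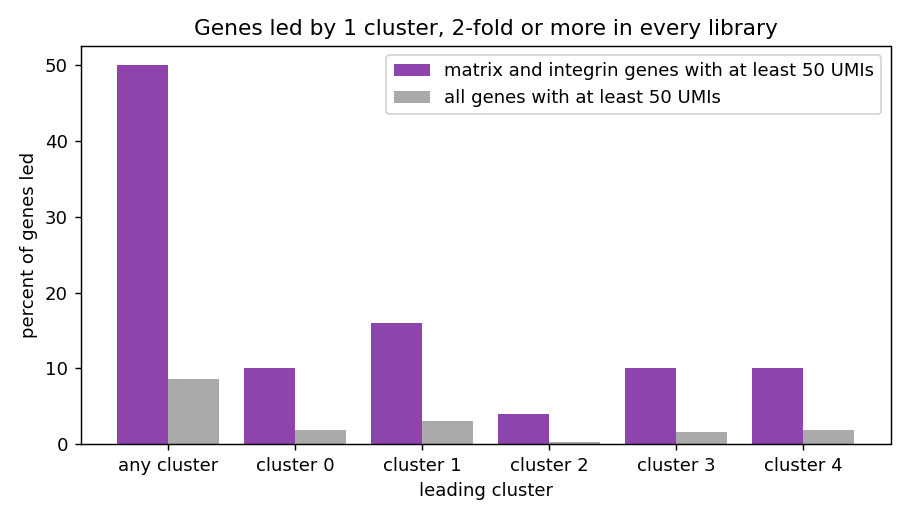
Percent of genes led by 1 cluster (vertical axis), for any cluster and for each cluster (horizontal axis). Shown are the 50 genes of the set and the 11467 genes of the whole table with at least 50 UMIs. Of the 50 genes, 3 match the rule by name alone. The bars for any cluster stand at 50% and 8.63%, and the set's bar is the taller in each cluster.

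Each cluster had its own combination. Cluster 0 led Col12a1, Itga8, Sulf1, Lama3 and Adamts6 (5 of 50, or 10%, against 1.89% of all genes). Cluster 1 led Col11a1, Adamts18, Sulf2, Col4a3, Reln, Bcan, Col16a1 and Hapln4 (8, or 16%, against 3%). Cluster 2 led Egflam and Adamts19 (2, or 4%, against 0.331%). Cluster 3 led Col18a1, Adamts15, Eln, Col26a1 and Lamb1 (5, or 10%, against 1.57%). Cluster 4 led Col24a1, Itga6, Itgb8, Col19a1 and Col15a1 (5, or 10%, against 1.84%). By class these were 9 of 14 collagens with at least 50 UMIs, 2 of 4 laminins, 1 of 2 lecticans, 4 of 10 ADAMTS proteases, 3 of 9 integrin subunits, both sulfatases, Hapln4, Eln, Egflam and Reln, but neither tenascin.

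**Figure D2:**
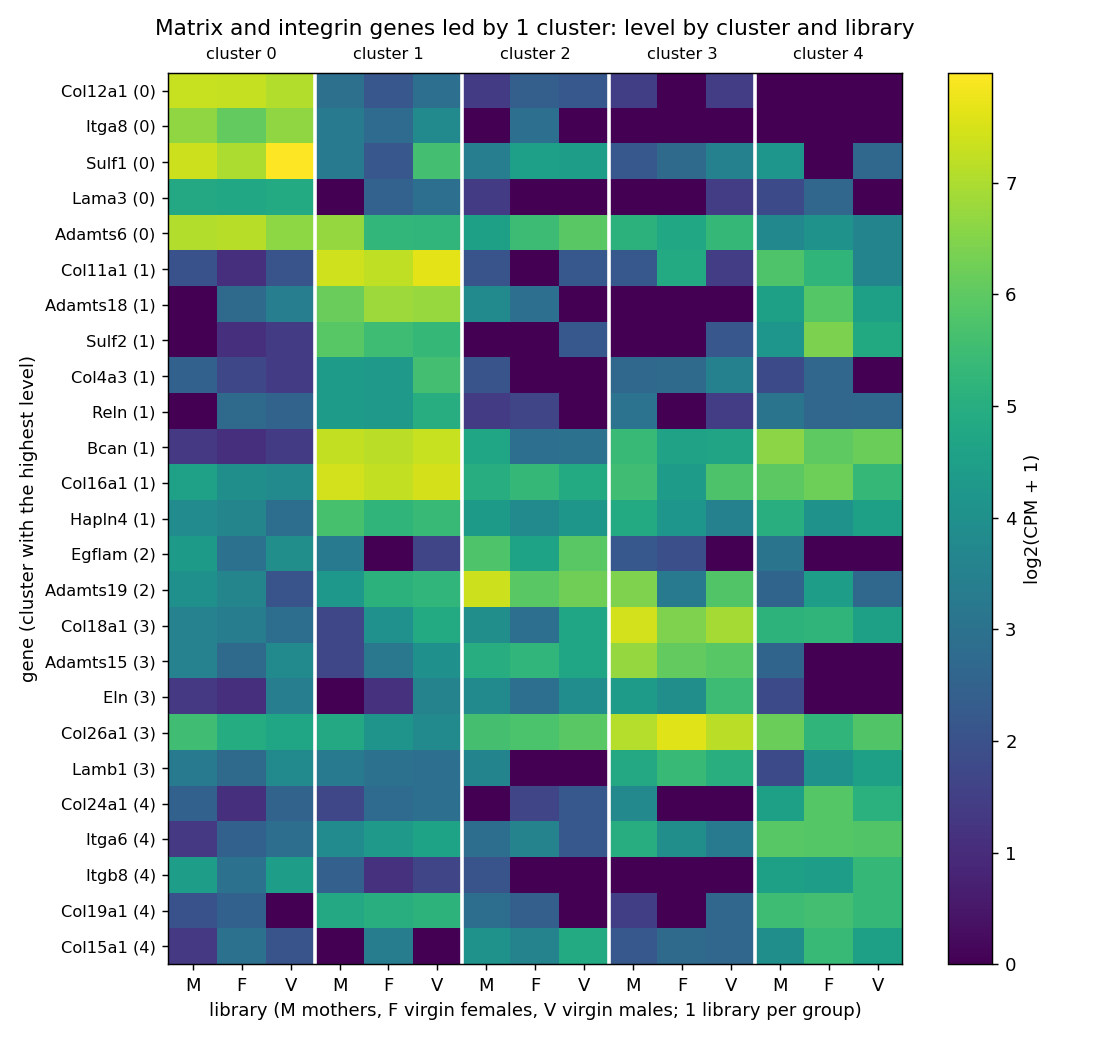
Level of the 25 matrix and integrin genes led by 1 cluster (rows, leading cluster in parentheses) in each cluster and library (columns), as log2(CPM + 1). The brightest cells of a row lie in its leading cluster, from Col12a1 at 134 to 159.7 CPM in cluster 0 to Itga6 at 55.1 to 59.4 CPM in cluster 4, with exceptions such as Sulf2 in virgin females, which was brighter in cluster 4.

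Among the collagens, Col12a1, a fibril-associated type, had the highest ratio of its leading cluster to the rest of the 25 led genes. In cluster 0 it stood at 159.7 CPM (mothers), 156 (virgin females) and 134 (virgin males), while no library exceeded 6.76 CPM in any other cluster, and cluster 4 had no UMI. The ratio of cluster 0 to the others pooled was 53.9. It was 117 when the nucleus with most UMIs was dropped from every cluster of every library. That setting removes any lone UMI, and outside cluster 0 no library held more than 3 UMIs in a cluster. The rise to 117 thus follows at least in part from the trimming and is no check on the contrast for Col12a1. The richest nucleus held 21 of its UMIs, and the gene (chr9:79598991-79718831, minus strand, in GENCODE vM21 coordinates on GRCm38) overlaps the antisense transcript 4930562D21Rik, whose UMIs cannot be separated without the strand used in counting.

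Col11a1 and Col16a1, the latter another fibril-associated collagen, were highest in cluster 1. Col11a1 stood there at 169 CPM (mothers), 147 (virgin females) and 199 (virgin males). Its next highest cluster was cluster 4, at 54.5, 36.7 and 11.0 CPM, and the ratio of cluster 1 to the rest was 18.5, or 11.5 with nuclei thinned to 5000 UMIs. Col16a1 stood at 171, 152 and 175 CPM in cluster 1 and at no more than 73.3 CPM in any library of another cluster. In both genes the cluster 1 values of all libraries lay above all others.

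Col18a1 and Col26a1 were highest in cluster 3. Col18a1 encodes the basement membrane collagen from which endostatin is cut. It overlaps Slc19a1 on the other strand. Its level in cluster 3 was 171 CPM (mothers), 86.3 (virgin females) and 119 (virgin males), against 36.7 CPM at most elsewhere. Col26a1, an EMI-domain collagen, stood at 135, 193 and 142 CPM in cluster 3. Mothers and virgin females came in opposite order for these genes, although cluster 3 was the highest for both in all libraries.

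Cluster 4 led Col24a1, Col19a1 and Col15a1. Col24a1 stood there at 22.3, 57.6 and 33.1 CPM in mothers, virgin females and virgin males, and Col19a1 at 44.6, 47.1 and 38.6. Col19a1 was also present in cluster 1, at 27.0 to 34.7 CPM, and reached no more than 6.42 CPM in clusters 0, 2 and 3. It was thus shared by the pair of clusters with the higher habenular marker level. Col15a1, a basement membrane collagen related to Col18a1, stood at 14.9, 41.9 and 22.0 CPM in cluster 4, and its values overlapped those of cluster 2, at 10.9 to 28.4.

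Other collagens were spread over the clusters. Col4a1 and Col4a2 encode the chains of the main type IV collagen of basement membranes. They ranged from 24.5 to 54.2 CPM and from 58.0 to 83.8 CPM over the clusters. On GRCm38 these genes face away from each other and share 22 bases at their starts, at chr8:11312805-11312826 (GENCODE vM21), a stretch that holds a GC box in capitals.
Col4a1 and Col4a2 shared start: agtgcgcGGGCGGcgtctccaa
Col4a3 and Col4a4, the next such pair of type IV chains, start 71 bases apart. Col4a3 was led by cluster 1, at 20.3, 18.9 and 47.7 CPM in mothers, virgin females and virgin males, and Col4a4 had 48 UMIs in all, with its highest level also in cluster 1, at 12.5 CPM. In virgin males 6 of the 22 Col4a3 UMIs and 5 of the 7 Col4a4 UMIs of cluster 1 came from 5 nuclei described below. Col4a1 and Col4a2 were thus led by no cluster and Col4a3 by 1, while Col4a4 had too few UMIs to compare the pairs. Endothelial markers summed to 16.9 to 41.6 CPM over the clusters, with Cldn5 and Ly6c1 at 0, and mural and fibroblast markers to 1.85 to 6.27 CPM, with Rgs5, Lum and Kcnj8 at 0. Their part in the type IV collagen level was not tested.

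Col25a1, a neuronal membrane collagen first known from amyloid plaques, had the most UMIs of the set, 3511. By cluster it stood at 387, 708, 271, 644 and 143 CPM in clusters 0 to 4. Its libraries differed within clusters. In cluster 4 it stood at 121 CPM (mothers), 267 (virgin females) and 60.6 (virgin males), while in cluster 3 it stood at 401, 569.7 and 925, so that the order of the libraries was not the same.

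The laminins, the cross-shaped proteins of basement membranes, were mostly low, and 4 of 11 had at least 50 UMIs. Lama3 was highest in cluster 0, at 27.1 CPM (mothers), 26.3 (virgin females) and 28.7 (virgin males), against 6.50 at most elsewhere. Lamb1 was highest in cluster 3, at 26.9, 40.3 and 31.5 CPM. Lamc1, the gamma chain shared by most laminins, varied from 32.2 to 48.5 CPM over the clusters and was led by none. Lama3, Lamb1 and Lamc1 thus had their highest levels in different clusters, apart from Lama3 and Lamc1 in cluster 0.

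The perineuronal net genes did not share 1 cluster. Bcan, which encodes brevican, stood in cluster 1 at 151 CPM (mothers), 140.3 (virgin females) and 158 (virgin males), and in cluster 4 at 96.5, 62.8 and 71.6. In cluster 0 no library exceeded 1.60 CPM. Hapln4, which encodes a link protein of brain nets, was also highest in cluster 1, at 49.6, 36.5 and 41.2 CPM, and was 10.6 CPM in cluster 0. Ncan, which encodes neurocan, was instead highest in cluster 3, at 75.4, 60.4 and 84.0 CPM, and was only 17.7 CPM in cluster 1 and 15.5 in cluster 4. Ncan and Hapln4 lie 2222 bases apart on chromosome 8. Bcan and Ncan thus had opposite orders in clusters 1 and 3, in every library.

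The remaining net genes were rare or spread out. Tnr, which encodes tenascin-R, was present throughout, at 425, 349, 311, 519.6 and 417 CPM in clusters 0 to 4. Tnc, which encodes tenascin-C, stood at 25.1, 33.0 and 27.1 CPM in clusters 1, 2 and 3, and at 0.462 and 1.29 CPM in clusters 0 and 4. Vcan had 41 UMIs, of which 34 were in cluster 1, Hapln1 had 34 UMIs, of which 25 were in cluster 1, and Acan, the aggrecan gene that marks classical nets, had 11 UMIs in all 592 neurons. In mothers, virgin females and virgin males the UMIs were 5, 17 and 19 for Vcan, 10, 18 and 6 for Hapln1. Astrocytes also express Bcan, Ncan and Tnc. The 7 astrocyte markers, with Gfap at 0, summed to 434, 70.7, 391, 309 and 104 CPM in clusters 0 to 4. Their part in the Bcan, Ncan and Tnc levels was not tested.

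Among the other secreted proteins, Reln, the glycoprotein that positions migrating neurons, was low and highest in cluster 1. It stood there at 20.3 CPM (mothers), 18.9 (virgin females) and 30.3 (virgin males), against 7.43 at most elsewhere. Egflam was highest in cluster 2, at 54.6, 24.0 and 60.4 CPM, followed by cluster 0 at 19.6, 6.87 and 14.4. Eln, which encodes elastin, was highest in cluster 3, at 19.8, 14.4 and 43.7 CPM. Each of these genes was highest in its leading cluster in all 3 libraries, but with 59, 101 and 71 UMIs in all.

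The secreted sulfatases were led by different clusters. Sulf1 was highest in cluster 0, at 164 CPM (mothers), 127 (virgin females) and 252 (virgin males), and at 6.78 to 16.5 CPM in the other clusters. Sulf2 was nearly absent from cluster 0, at 0.924 CPM, and stood in cluster 1 at 58.6, 44.8 and 39.0 CPM and in cluster 4 at 17.3, 83.8 and 27.5. Clusters 2 and 3 were low for both, with Sulf2 at 0.734 and 1.36 CPM. Cluster 0, where Sulf1 was highest, was thus a cluster where Sulf2 was at 0.924 CPM. Sulf2 overlaps Ncoa3 on the other strand, and their UMIs could be mixed if strand was not used in counting. Sulf1 had 47.7 CPM in cluster 1 of virgin males, where 19 of its 22 UMIs came from 5 nuclei described below.

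**Figure D3:**
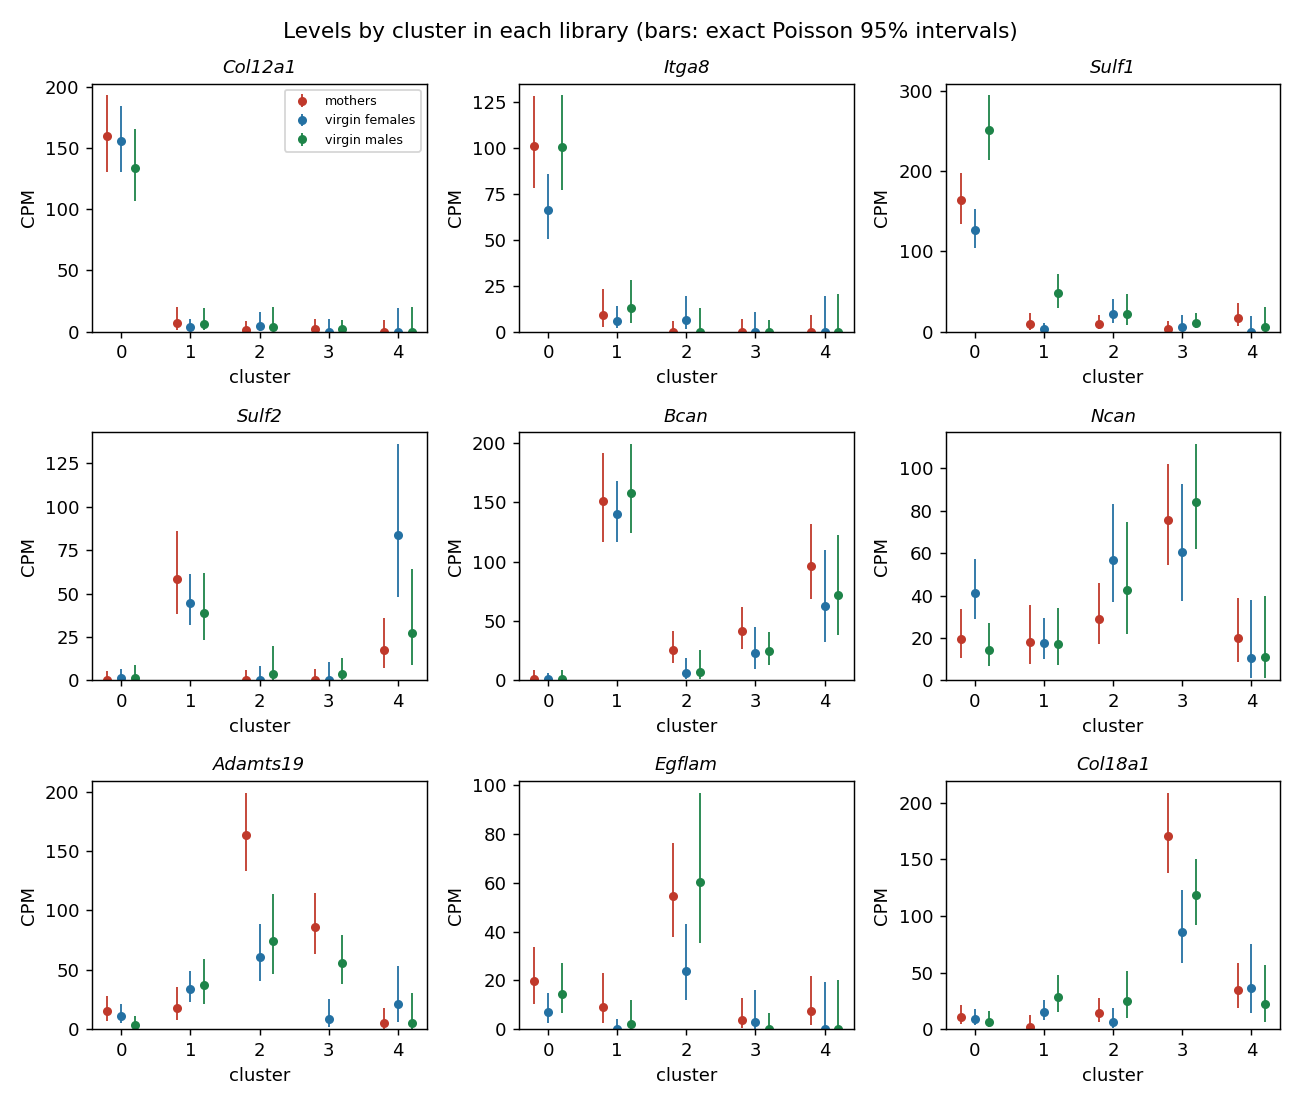
CPM (vertical axes) by cluster (horizontal axes) for 9 genes, with a point for each library and exact Poisson 95% intervals as bars. Sulf1 and Sulf2 occupy different clusters, Bcan peaks in cluster 1 and Ncan in cluster 3, and Col12a1 and Itga8 are high in cluster 0 alone.

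The ADAMTS proteases gave 4 genes led by a cluster, each by a different one. Adamts6 was highest in cluster 0, at 133 CPM (mothers), 139 (virgin females) and 97.4 (virgin males), although mothers reached 104 CPM in cluster 1. Adamts18 was highest in cluster 1, at 69.8, 111 and 106 CPM, followed by cluster 4 at 22.3, 57.6 and 22.0, and had no UMI in cluster 3. Adamts19 was highest in cluster 2, at 164, 61.1 and 74.6 CPM. Cluster 3 was next in mothers and virgin males, at 86.2 and 56.0 CPM, but lowest in virgin females, at 8.63. Adamts15, whose product cuts lecticans, was highest in cluster 3, at 104, 66.2 and 59.5 CPM. Adamts17, the family member with most UMIs (1365), stood at 93.5 to 229.7 CPM over the clusters and was led by none. Only 8 UMIs of Adamts5 and 3 of Adamts4, the best known lectican-cutting members, were counted.

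Of 9 integrin genes with at least 50 UMIs, 3 were led by a cluster. Itgb1, the beta subunit that pairs with most matrix-binding alpha subunits, stood at 57.2 to 69.8 CPM over the clusters, and at 63.5 CPM (mothers), 67.0 (virgin females) and 68.3 (virgin males). Itga3, a laminin receptor subunit, was also broad, at 42.5, 42.8, 48.4 and 58.3 CPM in clusters 0 to 3 and 21.9 in cluster 4. Itga8, whose dimer with Itgb1 binds nephronectin, stood in cluster 0 at 101 CPM (mothers), 66.4 (virgin females) and 101 (virgin males). It had no UMI in clusters 3 and 4, where 3 UMIs would correspond to 2.03 and 3.86 CPM. Itga6, another laminin receptor subunit, was highest in cluster 4, at 59.4, 57.6 and 55.1 CPM, against 30.5 at most elsewhere. The laminin receptor subunits Itga3 and Itga6 thus ran in opposite directions in cluster 4.

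Itgb8, a beta subunit that pairs with alpha V to activate TGF-beta, was present in clusters 4 and 0 and nearly absent elsewhere. It stood in cluster 4 at 22.3 CPM (mothers), 20.9 (virgin females) and 38.6 (virgin males), and in cluster 0 at 21.1, 6.87 and 20.8. The values of these clusters overlapped, with mothers in cluster 0 above virgin females in cluster 4. With the libraries summed, the other clusters were at 2.28 CPM or less. Itgb6 had 62 UMIs, and its highest cluster was not the same in all libraries. All 9 of its UMIs in cluster 4 came from virgin females, while in cluster 0 mothers, virgin females and virgin males had 15, 2 and 15. Itga5, Itga10 and Itga11 stood at 5.87 to 16.7, 6.01 to 14.3 and 7.34 to 15.5 CPM over the clusters.

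The other integrins had few UMIs. Itga7, a laminin receptor subunit of muscle, had 38 UMIs, of which 33 were in cluster 3. Itga9 had 49, Itga2 and Itga4 had 37 each, Itga2b had 29 and Itga1 had 13. Among beta subunits Itgb3 had 24, Itgb5 had 21, and Itgb4, Itgb2 and Itgb7 had 8, 7 and 4.

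**Figure D4:**
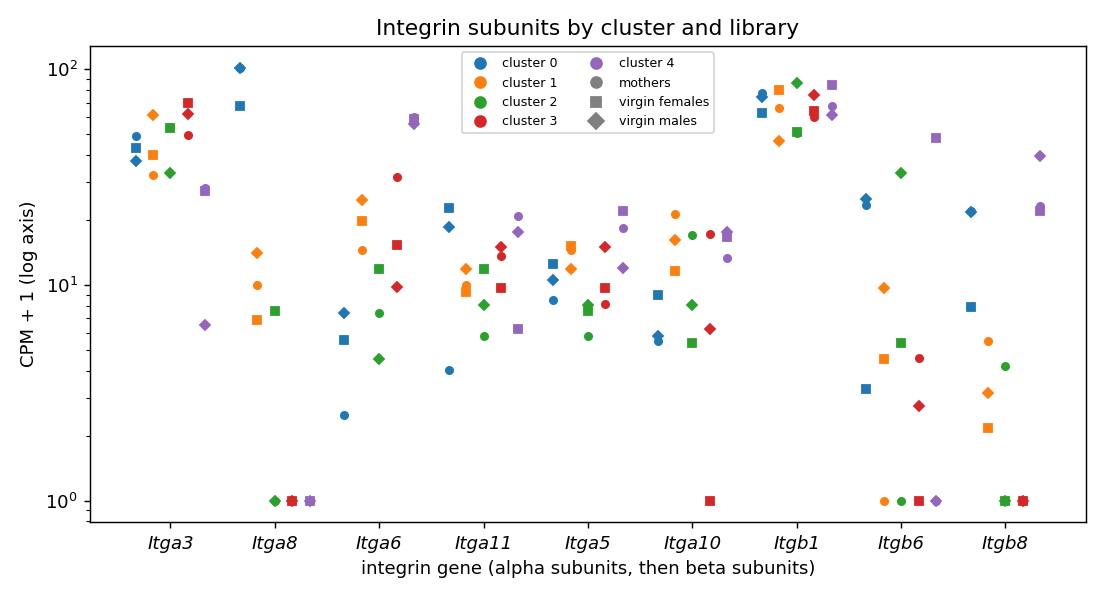
Level of the 9 integrin genes with at least 50 UMIs by cluster (colour) and library (symbol), as CPM + 1 on a log axis, so that a value of 1 is no UMI. Itgb1 lies between 45.5 and 85.2 CPM in every cluster and library, while Itga8 is high in cluster 0 and Itga6 in cluster 4.

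Below 50 UMIs some genes were gathered in 1 cluster. Col2a1, the cartilage collagen, had 25 of 35 UMIs in cluster 4, where Adamts9 had 18 of 32 and Col11a2 had 21 of 42. These counts are too small for the rule on led genes and are given as counts alone. Collagens of connective tissue included 10 UMIs of Col1a1, 3 of Col1a2, 1 of Col3a1, 3 of Col6a2, 26 of Col5a1, 25 of Col6a6 and 44 of Col27a1.

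Within cluster 1 the deposited subtype labels separated 86 nuclei called LHb2 from 71 called LHb4. Of 24 genes with at least 50 UMIs in the pair, 7 were past 1.5-fold (29.2%), against 14.5% of 6264 genes. Higher in LHb2 were 4 of 24, against 7.97% of all genes, and lower were 3, against 6.55%. Col25a1 was lower in LHb2 in all 3 libraries, at 403 against 733 CPM (mothers), 573 against 1164 (virgin females) and 645 against 869 (virgin males), with a ratio of 0.565 [0.505, 0.633]. Itga3 was lower in all 3 as well, with a ratio of 0.584 [0.361, 0.943]. Adamts6, Adamts19 and Col19a1 were higher in LHb2 in all 3 libraries, with ratios of 2.37, 2.47 and 2.85. Lamb3 was higher in LHb2 in all 3 libraries too, with a ratio of 9.65 [3.58, 36.5], and 41 of its 61 LHb2 UMIs lay in 1 nucleus described below. In virgin males its order rested on 1 UMI, at 4.06 against 0 CPM. The interval of Lamc1, which was lower, held 1. The labels were given to the same nuclei, so this contrast is a description too. Without the richest nucleus of each gene 4 of 20 genes were past the fold. Of these 1 was higher in LHb2, in place of 4, and 3 were lower, as before. Fewer genes then had 50 UMIs in the pair, 20 in place of 24, so a gene can drop out without a change of its ratio. Col19a1 and Adamts19 were near that minimum, with 45 and 43 UMIs in LHb2 and 10 and 11 in LHb4.

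Between libraries, 9 or 10 of the genes differed for each pair, in both directions. A gene was called past 1.5-fold when its CPM over all neurons was at least 1.5 times higher or lower, among genes that had 50 or more UMIs in the pair, and its ratio is given with an exact conditional binomial 95% interval. The median log2 ratio of the set was -0.05 for mothers over virgin females, -0.01 for virgin males over virgin females and 0.01 for mothers over virgin males, beside -0.01, -0.03 and 0.02 for all genes. The first 2 comparisons share the library of virgin females. The cluster mix differed between libraries, and the ratio over a common mix of clusters is given for several genes. Over that mix the counts past 1.5-fold were 7, 6 and 6 in the same order of pairs, in place of 10, 10 and 9. The share of all genes over that mix is not given. Cluster 3 held 17.4% of the mothers' neurons, 9.09% of those of virgin females and 19.1% of those of virgin males, and cluster 1 held 19.4%, 34.8% and 26.0%.

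Against virgin females, the mothers' library was past 1.5-fold for 10 of 42 genes (23.8%, against 7.49% of 10388 genes). Higher were 7 (16.7%, against 3.83%) and lower 3 (7.14%, against 3.66%), and the interval left out 1 for 6 (14.3%, against 2.78%) and 3 (7.14%, against 2.87%) of these. Egflam stood at 20.8 CPM (mothers), 6.62 (virgin females) and 12.7 (virgin males), a ratio of mothers to virgin females of 3.14 [1.82, 5.68]. Egflam was higher in mothers at 54.6 against 24.0 CPM in cluster 2 and 19.6 against 6.87 in cluster 0. The order was the same in clusters 1, 3 and 4, but on only 4 against 0, 2 against 1 and 3 against 0 UMIs. The ratio was 2.91 over a common mix of clusters.

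Adamts19, an orphan protease of the family, stood at 63.2 CPM (mothers), 27.2 (virgin females) and 34.4 (virgin males), a ratio of 2.32 [1.76, 3.09] of mothers to virgin females. The mothers' excess lay in cluster 2, at 164 against 61.1 CPM, and cluster 3, at 86.2 against 8.63. In clusters 1 and 4 mothers were the lower and the intervals held 1, with ratios of 0.527 [0.208, 1.18] and 0.236 [0.0214, 1.65]. Over a common mix of clusters the ratio was 1.89.

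Col18a1 and Adamts15, both led by cluster 3, were also higher in mothers. Col18a1 stood at 46.8 CPM (mothers), 22.4 (virgin females) and 45.2 (virgin males). The ratio of mothers to virgin females was 2.09 [1.53, 2.88], and 1.43 over a common mix of clusters. Adamts15, at 32.3, 19.1 and 26.4 CPM, had a ratio of 1.69 [1.19, 2.43], and 1.26 over the common mix. Within cluster 3 itself the ratios were 1.98 [1.30, 3.09] for Col18a1 and 1.57 [0.956, 2.67] for Adamts15. The procollagen-trimming gene Adamts2 (12.6, 5.89 and 10.8 CPM) had a ratio of 2.15 [1.15, 4.16], and Col9a3, a chain of the cartilage collagen type IX (17.8, 9.93 and 24.5 CPM), one of 1.80 [1.10, 2.99]. The interval of Itga10 held 1.

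Lower in mothers were Adamts18, Sulf2 and Lamb3. Adamts18 stood at 17.8 CPM (mothers), 41.6 (virgin females) and 27.8 (virgin males), a ratio of 0.429 [0.300, 0.606] of mothers to virgin females. Over a common mix of clusters it was 0.595, and cluster 1 itself gave 0.630 [0.406, 0.955]. Sulf2 stood at 12.3, 20.2 and 12.7 CPM, with a ratio of 0.606 [0.381, 0.95] that became 0.777 over the common mix. In cluster 4 Sulf2 was at 17.3 CPM for mothers and 83.8 for virgin females, while in cluster 1 mothers were the higher, at 58.6 against 44.8.

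Lamb3, a chain of epithelial laminin, stood at 9.66 CPM (mothers), 23.5 (virgin females) and 4.71 (virgin males). Of the 64 Lamb3 UMIs of virgin females, 41 were in 1 cluster 1 neuron. Leaving out the richest nucleus of each library, the ratio of mothers to virgin females went from 0.410 [0.250, 0.657] to 0.922, and that of virgin males to virgin females from 0.20 [0.0916, 0.392] to 0.445. The level of Lamb3 in virgin females without that nucleus was 8.52 CPM.

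Virgin males were past 1.5-fold of virgin females for 10 of 42 genes (23.8%, against 7.56% of 10024 genes). Higher were 6 (14.3%, against 2.98%) and lower 4 (9.52%, against 4.58%), and the interval left out 1 for 4 (9.52%, against 2.23%) and 3 (7.14%, against 3.26%) of these. Eln stood at 18.8 CPM in virgin males, 3.68 in virgin females and 7.80 in mothers, a ratio of 5.12 [2.52, 11.5] of virgin males to virgin females. Its cluster 3 values were 43.7 and 14.4 CPM, and the ratio was 3.74 over a common mix of clusters and 14.8 with nuclei thinned to 5000 UMIs. The library of virgin females held 10 Eln UMIs and that of virgin males 40.

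Sulf1 stood at 90.9 CPM in virgin males, 46.4 in virgin females and 47.6 in mothers. Its ratio of virgin males to virgin females was 1.96 [1.56, 2.48], and that of mothers to virgin males 0.523 [0.415, 0.657]. Within cluster 0 the ratio of virgin males to virgin females was 1.98 [1.55, 2.55], so the difference was present in the cluster that led the gene. Mothers and virgin females differed little in Sulf1, with a ratio of 1.03 [0.796, 1.32].

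In virgin males 5 neurons of cluster 1 stood apart. Non-neuronal markers made up 2.01% to 9.45% of their UMIs, chiefly Ttr, a transcript of choroid plexus, of which they held 721 of 735 UMIs in that library. They held 27 of the 52 Col9a3 UMIs of virgin males, 19 of 193 for Sulf1, 18 of 75 for Col8a1, 6 of 29 for Col4a3 and 4 of 40 for Eln. Without neurons above 1% non-neuronal markers, which are these 5, the ratio of virgin males to virgin females went from 2.47 [1.52, 4.08] to 1.20 for Col9a3. It went from 1.96 to 1.78 for Sulf1 and from 5.12 to 4.65 for Eln, and 6 of the genes were then past 1.5-fold in place of 10.

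Col18a1, Tnc and Adamts3 were past 1.5-fold between virgin males and virgin females as well. Col18a1 had a ratio of 2.02 [1.45, 2.83], which became 1.34 over the common mix of clusters. Tnc stood at 9.42 CPM in virgin males, 21.7 in virgin females and 19.3 in mothers, a ratio of 0.434 [0.248, 0.731]. In cluster 1 Tnc had no UMI in virgin males, against 37.7 CPM in virgin females and 27.0 in mothers. In cluster 2 it was present in all, at 41.7, 24.0 and 28.4 CPM. Adamts3 had a ratio of 0.655 [0.447, 0.948], which was 0.733 over the common mix and 1.19 with each nucleus thinned to 5000 UMIs. The intervals of Col4a3, Lamb1 and Sulf2 held 1.

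Between mothers and virgin males 9 of 41 genes were past 1.5-fold (22.0%, against 7.27% of 9990 genes). Higher in mothers were Adamts19, Egflam, Tnc and Itga10 (9.76%, against 4.25%), and lower were Adamts18, Col25a1, Eln, Itga11 and Sulf1 (12.2%, against 3.01%). The interval left out 1 for 3 of the higher (7.32%, against 2.92%) and 4 of the lower (9.76%, against 2.12%). Tnc had a ratio of 2.05 [1.20, 3.63] and Adamts19 one of 1.84 [1.39, 2.45]. Egflam had a ratio of 1.64 [1.02, 2.69], which was 1.26 over the common mix. Eln had one of 0.414 [0.232, 0.719] and Adamts18 one of 0.642 [0.429, 0.955], which was 0.695 over the common mix. The intervals of Itga10 and Itga11 held 1. Col25a1 stood at 363 CPM (mothers), 492 (virgin females) and 563 (virgin males), a ratio of mothers to virgin males of 0.645 [0.592, 0.702] that became 0.769 over the common mix.

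**Figure D5:**
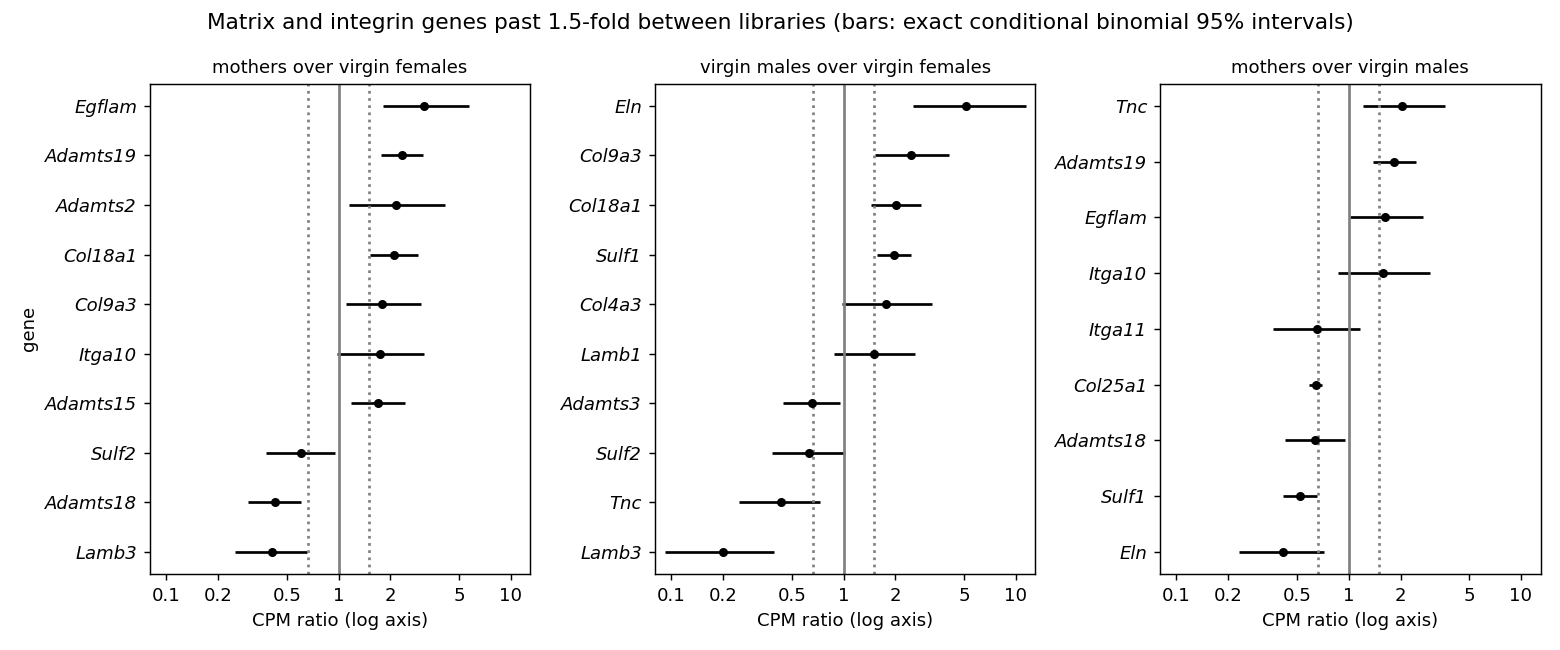
CPM ratio (horizontal log axis) of the matrix and integrin genes past 1.5-fold for each pair of libraries (panels), with exact conditional binomial 95% intervals, a solid line at 1 and dotted lines at the 1.5-fold limits. Egflam is the highest in mothers over virgin females at 3.14, and Eln in virgin males over virgin females at 5.12.

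Other genes of the same pathways were taken in 6 lists of 123 genes. The share of all genes led by a cluster was 8.63%. Of 9 reelin pathway genes 0 were led and 0 were past 1.5-fold for any pair of libraries, and with so few genes nothing is read from these counts. They included the reelin receptors Lrp8, at 47.0 to 88.9 CPM over the clusters, and Vldlr, at 26.3 to 54.7. Dab1, which relays the signal inside the cell, stood at 618, 705, 128, 8.81 and 440.4 CPM in clusters 0 to 4. It was at 8.81 CPM in cluster 3 although the receptors were present there. Of 10 integrin adaptors and kinases with at least 50 UMIs, 2 were led, Parva by cluster 1 and the kinase Ptk2b by cluster 3 at 124 CPM.

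Of 20 heparan sulfate genes with at least 50 UMIs, 7 were led, against 8.63% of all genes. The sulfotransferases Hs3st4 and Ndst4 were highest in cluster 1, at 441 and 93.5 CPM, and Hs3st1 in cluster 3 at 74.5. Gpc5, Sdc2 and Ndst3 were led by cluster 0, like Sulf1, and Hs6st2 by cluster 1, like Sulf2. Of 15 chondroitin sulfate and hyaluronan genes 3 were led, Cd44, the hyaluronan receptor, by cluster 0 at 29.6 CPM, Csgalnact1 by cluster 3 at 62.3 and Chsy3 by cluster 2 at 245. Fbln1 and Fbln5, of 9 other matrix genes, were led by clusters 0 and 3, at 57.3 and 35.9 CPM. Of 15 metalloprotease, inhibitor and related genes, Adamtsl1 and Timp4 were led by cluster 0, at 80.9 and 166 CPM, and Adam12 by cluster 1, at 118.

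Between libraries, 8 of 77 genes of these lists were past 1.5-fold for mothers over virgin females (10.4%, against 7.49% of all genes), 9 of 76 for virgin males over virgin females (11.8%, against 7.56%) and 6 of 74 for mothers over virgin males (8.11%, against 7.27%). Adam12 stood at 17.8 CPM for mothers and 46.7 for virgin females, a ratio of 0.382 [0.268, 0.536]. Ndst4 was at 25.3 CPM (mothers), 44.9 (virgin females) and 24.5 (virgin males). Hs3st1 was at 32.7, 15.8 and 23.1 CPM, and its ratio of mothers to virgin females was 2.07 [1.42, 3.05]. Adamtsl3 and Chsy3 were also higher in mothers than in virgin females, with ratios of 2.32 [1.45, 3.79] and 1.57 [1.32, 1.87]. No ratio over a common mix of clusters is given for these genes, and the cluster mix can contribute to their ratios. Adam12 and Ndst4 were led by cluster 1, which held 19.4% of the mothers' neurons and 34.8% of those of virgin females. Hs3st1 was led by cluster 3, which held 17.4% and 9.09%, and Chsy3 by cluster 2, which held 22.9% and 13.9%.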

How the data were processed

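The authors deposited a table of UMI counts per gene and nucleus for the 3 libraries, and metadata per nucleus with its library, class, cluster, subtype labels and percent of mitochondrial UMIs. Per the submitters' processing notes, Cell Ranger 5.0.1 and GRCm38 (mm10) were used. Intron counting, strand, filters on nuclei, the treatment of doublets and the reference of the LHb2 and LHb4 labels are unstated in the sources used here. The tables were joined on total UMIs and genes per nucleus, a pair unique to each of the 603 nuclei, and the deposited percent matched the counts within 1e-09. Counts of neuronal nuclei were summed by library, cluster or both and scaled to CPM, so nuclei were not treated as replicates. Intervals at 95% are exact Poisson for CPM and exact conditional binomial for ratios. Counting error is all they hold, not the differences among mice, dissections and nuclei. A floor of 3 UMIs was 1.11, 1.10 and 1.41 CPM in mothers, virgin females and virgin males. "Over a common mix" means each cluster's CPM weighted by its share of the pooled nuclei. Every gene of the set with at least 50 UMIs could be named, and values by library are given for led genes, genes past 1.5-fold, integrins and net genes. From the other pathway lists up to 3 genes with the largest ratios, and genes needed to describe a list, are named. The genes, pathway lists and marker lists were chosen with earlier results of these data known. Alternatives changed the UMI minimum, the folds, depth (thinning to 5000 UMIs), the nuclei used, the scaling and the cluster mix. No doublet caller was run, and an alternative without the 5% of nuclei with most UMIs stood in its place. Analyses used Python 3.11.15, numpy 2.4.6, scipy 1.17.1 and pandas 2.3.3.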

Additional observations from a re-analysis of the deposited data

Results flagged for a closer look

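Library ratios of a gene went in opposite directions in different clusters for Col25a1 and for Col4a3bp, among clusters with at least 50 UMIs in the 2 libraries compared, where the counting interval of the ratio lay above 1 in one cluster and below 1 in another. The genes came from a scan of 50 genes over all clusters and pairs of libraries, 750 ratios before the UMI minimum. Some intervals will leave out 1 in a scan of that size, and the share of all genes that meet the same rule is not given. These differences were not tested, since each group had 1 library. For mothers over virgin females Col25a1 stood at 2.001 in cluster 2, at 345 against 172 CPM, but at 0.675 in cluster 1, 0.703 in cluster 3 and 0.454 in cluster 4. For virgin males over virgin females it stood at 1.566 in cluster 2 and 1.624 in cluster 3, but at 0.227 in cluster 4, where virgin males had 11 UMIs. For mothers over virgin males it stood at 2.002 in cluster 4, but at 0.703 in cluster 1 and 0.433 in cluster 3. Col4a3bp, the ceramide transfer gene that the rule took by name, stood at 1.516 in cluster 0 and 0.491 in cluster 4 for mothers over virgin females.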

How the results depend on the processing

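Of the counts recomputed under an alternative, 31 stayed within 1.5 times the reported count and 17 did not. The count of led genes was 25 and was 14 with nuclei thinned to 5000 UMIs, which leaves fewer genes with 50 UMIs. It was 27 to 29 without 1 library, but leaving a library out removes a condition of the rule, so this does not check the count. The counts past 1.5-fold depended on the UMI minimum, which sets how many genes enter. They were 10 for mothers against virgin females, and 21 at a minimum of 20 UMIs, 4 at 100, 6 at a fold of 2 and 4 when thinned. They were 10 for virgin males against virgin females, and 24, 3, 5 and 2 in the same order. This count was 6 without neurons over 1% non-neuronal markers, where 40 genes entered in place of 42, and 6 over a common mix of clusters. They were 9 for mothers against virgin males, and 16, 4, 2 and 3. Over a common mix of clusters the count was 7 for mothers against virgin females and 6 for mothers against virgin males. For LHb2 against LHb4 the count was 7, 20 at 20 UMIs and 4 without the richest nucleus of each gene, both settings chosen after seeing the data, as were those on non-neuronal markers and on LHb-labelled neurons. Of ratios of single genes, Adamts3 for virgin males over virgin females reversed from 0.655 to 1.19 when thinned, and 29 moved without a change of direction. Among these Eln went from 5.12 to 14.8 when thinned, and Col9a3 for virgin males over virgin females from 2.47 to 5.24 as a mean over nuclei. The cause was not tested. No paired analysis was possible because each group had 1 library and no test was made. Depth limits genes of few UMIs: with 3 mice pooled per library, no ratio here separates the group from the pool.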

Other observations

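The 11 nuclei outside the neuronal class gave a few matrix values. In 5 ependymal nuclei, all of virgin females, Adamts20 had 124 UMIs in 58441, or 2122 CPM, with a UMI in all 5, against 23.5 CPM in neurons. The same nuclei held 11 UMIs of Reln, 11 of Col4a5 and 10 of Col5a2. In 3 astrocytes Lama2 had 9 UMIs in 10579, or 851 CPM, with a UMI in all 3, against 3.72 CPM in neurons. These are values of few nuclei, with no comparison, and the ependymal nuclei came from 1 library.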
